A study of Mus musculus with 13 samples.

Results

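Long-term dietary restriction was compared with ad libitum feeding in the hippocampus of old female mice by single-nucleus RNA sequencing. The 4 libraries titled Long-term DR at 24 months and the 3 titled AL at 24 months, replicates 1, 2 and 4, form the comparison, 7 of the 13 libraries of the series. All mice carried the C3B6F1 hybrid background, written C3HB6F1 in the sample labels, a first-generation cross of inbred strains with no engineered allele named. The long-term group was restricted from 5 months of age and the ad libitum group had free access to food. The other libraries were 3 of old mice restricted from 20 months (acute restriction) and 3 of young mice of 5 months fed ad libitum. The labels do not say how strongly food was restricted, nor whether a library came from 1 mouse or from a pool. The p-values therefore measure the spread between libraries, which may be technical in part. Nuclei from whole frozen hippocampus had been stained with Hoechst dye, a DNA stain, and sorted before capture on the 10x Genomics platform.

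Dietary restriction lowers food intake without malnutrition and extends lifespan in many laboratory animals. In restricted or fasting animals, insulin and growth factor signals fall, fat is oxidised in place of glucose, adrenal glucocorticoid secretion rises, and meal timing can reset the molecular clock. Oligodendrocytes wrap axons in myelin, a lipid-rich membrane, arise from dividing precursors throughout life, and are among the brain cells that respond strongly to glucocorticoids.

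The 7 libraries held 50887 barcodes, of which 47498 nuclei remained after filters and removal of predicted doublets, and 40376 of these lay in clusters that could be named from markers. Total unique molecular identifiers (UMIs, which count captured RNA molecules once each) ran from 38546292 to 80538090 per library. Between 2.23% and 3.15% of a library's barcodes also occurred in another of the 13 libraries. Of 13 named classes, 11 had enough nuclei for a test. Raw UMIs were summed per library and class, and every level below is in CPM, the count of a gene scaled to the size of such a sum after correction for composition. Granule, CA1 and CA3 neuron markers, those of the labels' tissue, were among those that named clusters. Over all 13 libraries, the hormone genes Pomc and Gh led an unnamed cluster of 776 barcodes, mostly predicted doublets. Prl, also a hormone gene, led an unnamed cluster of 71 barcodes. Whether their RNA came from other tissue was not tested. The libraries numbered 1 stood apart in both groups, with oligodendrocyte-like nuclei at 2.44% and 3.91% of named nuclei, against 12.4% to 25.9% in the other 5. Their oligodendrocyte sums held 328221 and 363848 UMIs, against 1772647 to 3450143 in the other 5, so their levels carry more counting error. Called genes that lost their call without the libraries numbered 1 are therefore named.

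Genes called at an adjusted p below 0.05 (edgeR quasi-likelihood test, Benjamini-Hochberg over all genes of the class) were found in the oligodendrocyte lineage. In mature oligodendrocyte-like nuclei 28 of 11329 genes were called, 0.247%, with 12 higher (0.106%) and 16 lower (0.141%) under long-term restriction. In precursor-like nuclei 4 of 9163 genes were called, 0.0437%, with 3 higher (0.0327%) and 1 lower (0.0109%). Over all 11 classes these were 0.0291% of the 109927 tests, 0.0136% higher and 0.0155% lower. In the other 9 classes none was called, although 82 to 743 genes per class had an unadjusted p below 0.05 and DESeq2 called 0 to 11 per class. Of these, CA3-like neurons had enough nuclei in 4 restricted and 2 ad libitum libraries only. Cajal-Retzius-like neurons and endothelial-like nuclei had enough in 2 and 2. For all 32 called genes the 4 restricted libraries lay wholly above or wholly below the 3 ad libitum libraries. Such separation held for 8.24% of all genes tested in oligodendrocyte-like and 7.49% in precursor-like nuclei. An unadjusted p below 0.05, used below to describe lists, was reached by 8.52% of oligodendrocyte genes, 5.04% higher and 3.48% lower. The gene lists were chosen with earlier results of these data known, so counts within a list are not independent support for its theme. A class without a call is not shown to be unaffected.

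The smallest adjusted p in oligodendrocyte-like nuclei belonged to Adamts2 (chr11:50602084-50807573, plus strand, mm10), a protease that trims the amino end of fibrillar procollagens. Its level was 99.1, 94.9 and 102 CPM in ad libitum libraries 1, 2 and 4. It was 18.7, 28.2, 45.4 and 26.9 CPM in restricted libraries 1 to 4. Every restricted library was below every ad libitum library by a wide margin. The log2 fold change was -1.58 ± 0.196 (SE, n = 4 and 3, edgeR adjusted p = 7.9e-05). Adamts4, another protease of the family that cleaves matrix proteoglycans, gave -0.53 ± 0.154 (edgeR adjusted p = 0.166), with 96.2, 97.9 and 102 CPM ad libitum and 40.5 to 77.0 CPM restricted. Of 18 matrix and protease genes tested, Adamts2 alone was called, and 5 had an unadjusted p below 0.05, all lower. The list's median log2 fold was -0.33, beside 0.024 over all genes tested in the class.

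Piezo2, which encodes a mechanically gated cation channel, showed the greatest fold of the genes that fell. It stood at 23.3, 30.4 and 62.9 CPM in the ad libitum libraries and at 3.12, 3.02, 4.08 and 0.585 CPM in the restricted ones. These restricted levels rest on 1, 6, 8 and 1 UMIs, against 8, 101 and 158 ad libitum. The fitted log2 fold was -3.93 ± 0.45 (edgeR adjusted p = 0.000103). DESeq2, which gave no adjusted p for 6589 of the 11329 genes, gave none for Piezo2. In precursor-like nuclei the same gene gave -0.05 (edgeR adjusted p = 0.994). Of 27 mechanosensitive and other channel genes tested, Piezo2 was the 1 called, and the list's median was 0.05, or -0.05 without the libraries numbered 1.

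**Figure D1:**
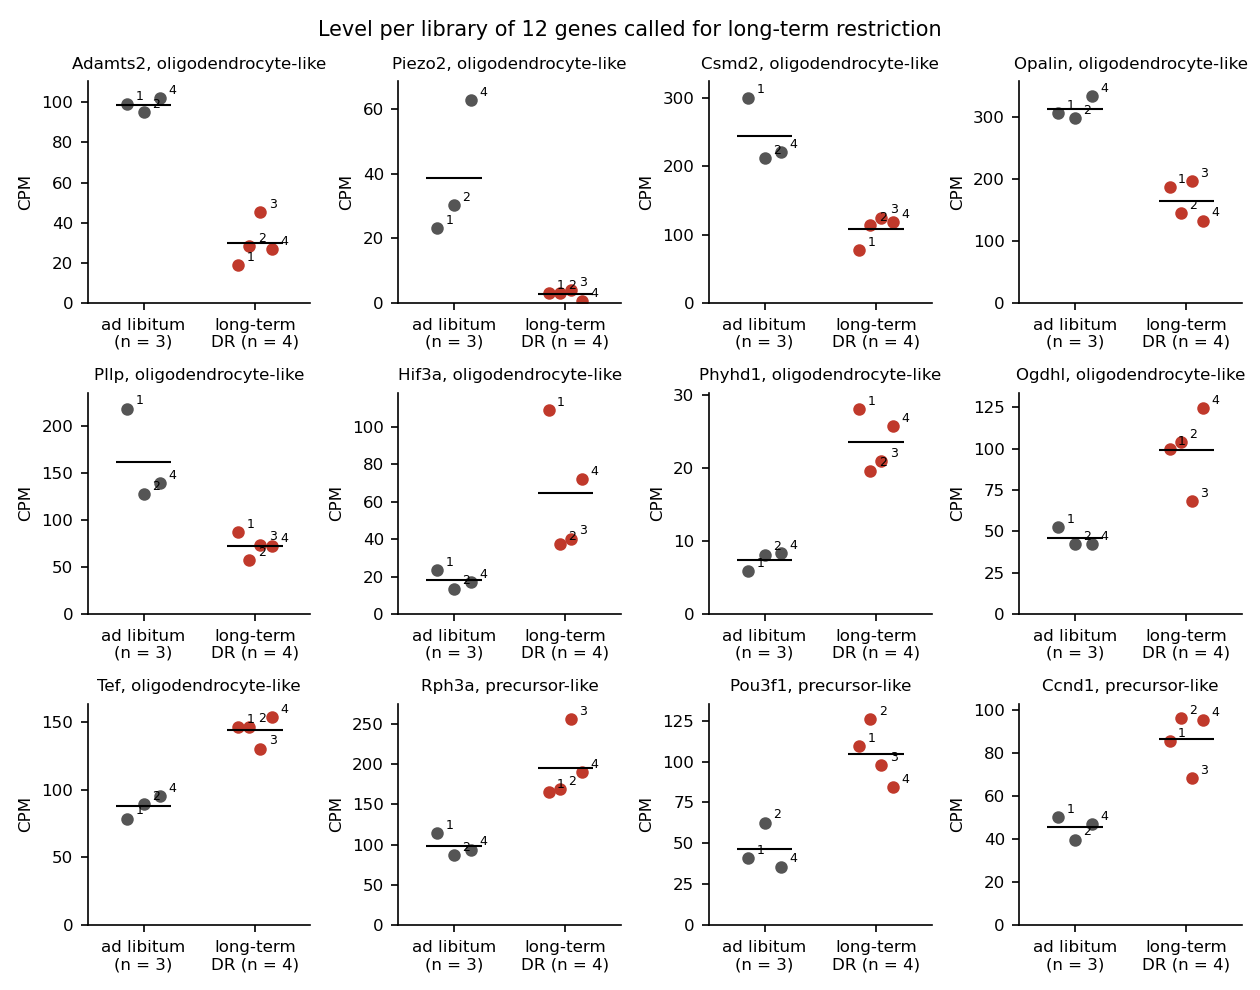
Level in CPM of 12 called genes in each library (points, numbered by replicate) with group means (lines): 9 in oligodendrocyte-like sums and Rph3a, Pou3f1 and Ccnd1 in precursor-like sums. Each y axis starts at 0. In every panel the 4 restricted libraries lie on 1 side of the 3 ad libitum libraries.

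Among myelin genes, Opalin and Pllp fell. Opalin (chr19:41061710-41077113, minus strand), a transmembrane glycoprotein found in the paranodal loops of central myelin, read 306, 298.5 and 333 CPM ad libitum and 187, 144, 196 and 133 CPM restricted. It fell by 0.92 on the log2 scale (SE 0.147, edgeR adjusted p = 0.00233). Pllp, plasmolipin, a myelin membrane proteolipid, read 219, 127 and 140 CPM ad libitum and 87.2, 57.9, 74.0 and 72.0 CPM restricted. It fell by 1.08 (SE 0.201, edgeR adjusted p = 0.018). These were the 2 called of 28 myelin genes tested, and 13 of the 28 had a fold above 0. Mbp, myelin basic protein, the main protein of the compact sheath's inner face, gave 0.06 (edgeR adjusted p = 0.949) and Mog, a surface glycoprotein of myelin, 0.06 (0.943). The list's median was -0.03. Opalin also served as 1 of the 12 markers that named the class, and it was the 1 of those markers that was called. At an unadjusted p below 0.05, 4 of the 12 were lower and 0 higher. Over all genes of the class 3.48% were lower and 5.04% higher at that level. The summed level of the 12 markers was 18790 to 20360 CPM restricted and 19950 to 23080 CPM ad libitum. The part of this difference in the class's results was not tested.

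Of the 16 lowered genes, 3 belong to the list of axon guidance and cell contact and 2 to that of glutamate and GABA receptors, while Csmd2 belongs to none. Csmd2, a large transmembrane protein with complement-type domains found at synapses, read 300.3, 212 and 221 CPM ad libitum and 77.9, 114, 125 and 118 CPM restricted, a log2 fold of -1.04 ± 0.16 (edgeR adjusted p = 0.00191). Dcc, the netrin receptor, gave -0.67 ± 0.142 (edgeR adjusted p = 0.0297) at 813 to 921 CPM ad libitum and 461 to 576 CPM restricted. The transmembrane semaphorins Sema5a and Sema6d, guidance cues that can also act as receptors, gave -0.97 and -0.59 (edgeR adjusted p = 0.0297 and 0.0221). These 3 were the called members of 33 guidance genes tested, 4 of the 33 had a fold above 0, and the median was -0.19. Without the libraries numbered 1, Sema5a was called (edgeR adjusted p = 0.0148) and Dcc and Sema6d were not (0.0795 and 0.0784), at log2 folds of -0.59 and -0.51. Among 31 glutamate and GABA receptor genes, 2 were called. Gria4, an AMPA receptor subunit, read 335 to 376 CPM ad libitum and 171 to 280.0 CPM restricted, a log2 fold of -0.73 ± 0.15 (edgeR adjusted p = 0.0244). Grik4, a kainate receptor subunit, read 175, 176.5 and 176 CPM ad libitum and 84.1 to 135 CPM restricted, -0.71 ± 0.159 (edgeR adjusted p = 0.0416). In that list 2 of 31 folds were above 0 and the median was -0.31. Without the libraries numbered 1 neither was called (edgeR adjusted p = 0.101 for Gria4 and 0.0821 for Grik4), with log2 folds of -0.76 and -0.70, and the median was -0.47. The receptor list's median was -0.23 in astrocyte-like nuclei (5 of 30 above 0) and -0.44 in microglia-like nuclei (1 of 13 above 0). Granule-neuron markers in the oligodendrocyte sums added up to 4012 to 4667 CPM restricted and 4554 to 5013 CPM ad libitum, and 1 of the 7 tested was lower at an unadjusted p below 0.05. The same markers added up to 1075 to 1229 CPM in precursor-like and 297 to 453 CPM in astrocyte-like sums over both groups. How much of these sums came from other cells was not tested, nor was their part in the receptor and guidance results. Also lower were Tmem132d, a transmembrane protein, at -0.84 (edgeR adjusted p = 0.018), Nckap5 at -0.96 (0.018) and the unnamed gene model Gm816 at -1.32 (0.018). Gm816 was not called without the libraries numbered 1 (-1.29, edgeR adjusted p = 0.0795).

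The lowered genes were long. The median genomic span was 402 kb for the 16 called lower, 32.6 kb for the 12 called higher and 29.3 kb for all genes tested in the class. Of the 16, 13 spanned more than 100 kb, against 18% of genes tested. Across 11321 genes, which are not independent replicates, Spearman's rho of fold with span was -0.15. A smooth trend on span of each library's deviation from the mean of all libraries was then removed before the fit. With it removed, 19 of the 28 were still called. Adamts2 (-1.52), Piezo2 (-3.82), Csmd2 (-0.89), Opalin and Pllp were among them, while 9 were not. Of these, Sema5a gave -0.83 in place of -0.97 (edgeR adjusted p = 0.215), Dcc -0.48 in place of -0.67 (0.421) and Sema6d -0.44 in place of -0.59 (0.158). Nckap5 gave -0.77 in place of -0.96 (edgeR adjusted p = 0.11), Tmem132d -0.67 in place of -0.84 (0.118) and Grik4 -0.59 in place of -0.71 (0.0873). Dscam (-0.53 in place of -0.69), Gm15478 and Ankub1 were the others. Gm15478, which spans 4.38 kb, gave 0.61 in place of 0.69 (edgeR adjusted p = 0.312). All 9 kept their direction.

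Of the 12 genes that rose in oligodendrocyte-like nuclei, Hif3a and Phyhd1 belong to the list of fasting and fat use. Hif3a (chr7:17031507-17062427, minus strand), a hypoxia-inducible factor subunit that glucocorticoids induce, read 23.3, 13.6 and 17.1 CPM ad libitum. It read 109, 37.2, 40.3 and 72.0 CPM restricted, a log2 fold of 1.85 ± 0.32 (edgeR adjusted p = 0.018). Library 1 was the highest of the restricted libraries. Phyhd1, a dioxygenase that uses 2-oxoglutarate, read 5.83, 8.13 and 8.36 CPM ad libitum and 28, 19.6, 20.9 and 25.7 CPM restricted, 1.51 ± 0.304 (edgeR adjusted p = 0.0217). Those levels rest on 2, 27 and 21 UMIs ad libitum and 9 to 44 UMIs restricted. Ogdhl, a relative of the E1 subunit of the citric acid cycle's 2-oxoglutarate dehydrogenase, read 52.5, 42.5 and 42.2 CPM ad libitum and 99.7, 104, 68.3 and 125 CPM restricted, 1.21 ± 0.223 (edgeR adjusted p = 0.018). Echdc1, a decarboxylase that clears side products of fatty acid synthesis, gave 0.98 ± 0.202 (edgeR adjusted p = 0.0244).

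Of 25 fasting and fat-use genes, Hif3a and Phyhd1 were the 2 called, all 5 with an unadjusted p below 0.05 were higher, and the median was 0.08. As this list was chosen with earlier results of these data known, the 2 calls do not establish a fasting response. Plin4, a lipid droplet coat protein, read 11.7, 11.4 and 11.1 CPM ad libitum and 46.7, 15.6, 19.4 and 26.3 CPM restricted, 1.02 ± 0.314, without passing the test (edgeR adjusted p = 0.206). Pdk4, the kinase that shuts off pyruvate dehydrogenase, gave 0.98 ± 0.32 (edgeR adjusted p = 0.247). Of 20 glucocorticoid-response genes, which share Hif3a, Plin4 and Pdk4 with the fasting list and Per1 with the clock list, 1 was called, 7 had an unadjusted p below 0.05, all higher, and 17 had a fold above 0. The median was 0.41, beside 0.024 over all genes. Sgk1, a kinase induced by glucocorticoids, read 61.2, 38 and 31 CPM ad libitum and 262, 78.5, 45.4 and 127 CPM restricted, 1.55 ± 0.578 (edgeR adjusted p = 0.484). Klf15, a glucocorticoid-induced zinc finger factor, gave 0.61 (edgeR adjusted p = 0.32). For Hif3a, Plin4 and Sgk1 the highest level of the 7 was in restricted library 1. Without the libraries numbered 1, Hif3a was called (adjusted p = 0.00989), Phyhd1 was not (0.0503, at a log2 fold of 1.42), and the glucocorticoid list's median was 0.34.

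Also raised were Mettl7a1, a methyltransferase-like protein of lipid droplets and the endoplasmic reticulum, at 0.71 ± 0.139 (edgeR adjusted p = 0.018), Pantr1, a long noncoding RNA, at 0.82 ± 0.162 (0.018), and Fam71d at 2.09 ± 0.431 (0.0244). Fam71d rests on 0 to 11 UMIs ad libitum and 4 to 22 restricted, and was not called without the libraries numbered 1 (1.95, edgeR adjusted p = 0.0544). Some of these genes also had a fold above 0 in neurons, where none passed the adjusted test. Mettl7a1 gave 0.65 and Fam71d 1.44 in CA1-like neurons (edgeR adjusted p = 0.803 and 1), and Echdc1 gave 0.60 in granule-like neurons (0.999). In subicular or cortical neurons 7 of the 22 tested of these 28 genes had an unadjusted p below 0.05, beside 5.72% of all genes of that class. The same count was 5 of 22 in CA1-like neurons (4.36% of all genes), 5 of 20 in astrocyte-like nuclei (5.31%) and 4 of 28 in granule-like neurons (4.27%). It was 3 of 22 in CA3-like neurons (2.49%), 3 of 22 in inhibitory neurons (2.6%) and 3 of 21 in precursor-like nuclei (5.96%). In microglia-like nuclei it was 1 of 9 (4.87%), in endothelial-like nuclei 0 of 10 (2.47%) and in Cajal-Retzius-like neurons 0 of 7 (5.95%). These counts take both directions together. Among the 7 in subicular or cortical neurons, Pantr1 (-0.43) fell although it rose in oligodendrocyte-like nuclei. Sema5a (-0.66) fell in both, and the others of the 7 rose in both. These classes come from the same libraries. Bcl2, the founding inhibitor of mitochondrial cell death, was named after its values were seen: it read 8.75, 7.53 and 7.96 CPM ad libitum and 18.7, 17.1, 19.4 and 25.2 CPM restricted. Its log2 fold was 1.41 ± 0.301 (edgeR adjusted p = 0.0302). Mrgpra2b and Gm15478, level with Dcc and Sema5a at an adjusted p of 0.0297, gave 2.61 and 0.69 (edgeR). Mrgpra2b rests on 0 to 5 UMIs ad libitum and 1 to 26 restricted. Gm15478 gave 0.57 in granule-like and 0.73 in subicular or cortical neurons (edgeR adjusted p = 0.621 and 0.759). Neither was called without the libraries numbered 1 (edgeR adjusted p = 0.0544 for Mrgpra2b and 0.0943 for Gm15478), at log2 folds of 2.58 and 0.56. The other genes called, also shown in the plot of folds under both diets, were Ankub1, Syt11, Asxl3 and Dscam, with log2 folds from -0.69 to 0.56. Syt11 and Asxl3 were not called without the libraries numbered 1 (-0.57 and -0.61, edgeR adjusted p = 0.0961 and 0.0581). Of the 28 genes, 19 overlap another annotated gene on either strand, as do all 4 genes called in precursor-like nuclei. Reads of such neighbours may be counted to either gene, as the strand handling of the counting is not given in the sources used here.

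**Figure D2:**
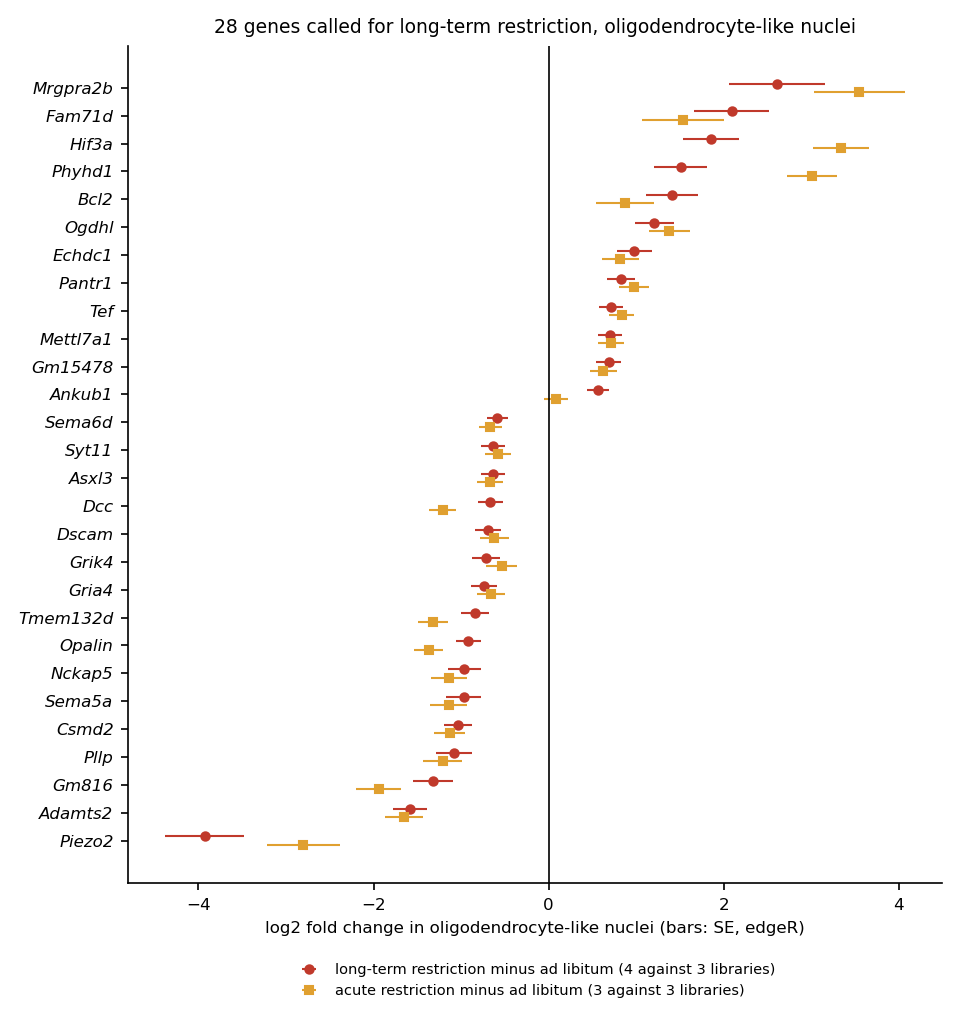
Log2 fold change against old ad libitum libraries (x axis, points with SE bars from edgeR) of the 28 oligodendrocyte-like calls of the long-term comparison (y axis). Circles show long-term restriction and squares acute restriction; both use the same 3 ad libitum libraries. Hif3a and Phyhd1 have higher squares (3.34 and 3.01) than circles (1.85 and 1.51).

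The acute group is set beside the long-term group only as values, since both comparisons share the ad libitum libraries. For Adamts2 the fold was -1.58 after long-term and -1.65 after acute restriction, for Csmd2 -1.04 and -1.13, for Ogdhl 1.21 and 1.38, and for Tef 0.71 and 0.84. Long-term and acute restriction were also tested against each other, where 12 of 11329 genes, 0.106%, were called in oligodendrocyte-like nuclei, and 0.0109% over all classes (0.00273% higher and 0.00819% lower). Hif3a was 1.49 lower on the log2 scale after long-term than after acute restriction (log2 fold -1.49, edgeR adjusted p = 0.0229). Its acute libraries read 133, 170.1 and 158 CPM, all above the 4 long-term libraries. Phyhd1 gave -1.50 (edgeR adjusted p = 0.00182), with acute libraries at 40.7, 85.2 and 49.4 CPM, again above every long-term library. Plin4 and Pdk4 gave -1.59 and -1.52 (edgeR adjusted p = 0.00274 and 0.0043). Opalin, at -1.37 after acute restriction, did not pass the test of the difference (0.46, edgeR adjusted p = 0.493). The old against young ad libitum contrast, which shares the same controls and called 1.48% of tests over all classes (0.773% higher, 0.703% lower), gave -0.10 for Adamts2, 0.78 for Hif3a and -0.13 for Opalin (edgeR adjusted p = 0.844, 0.451 and 0.721). In that contrast 712 of 11329 oligodendrocyte genes were called, 6.28%, and 7 of the 28. The old ad libitum libraries enter the contrasts of age and of restriction with opposite signs, so the direction of one is not independent of the other. For the same reason the count of 7 of the 28 is not a result about overlap. Mettl7a1 gave -0.71, Gm15478 -0.78 and Echdc1 -0.90 with age (edgeR adjusted p = 0.00596, 0.00435 and 0.0226). Sema6d gave 0.52, Grik4 0.67 and Gm816 0.99 with age (edgeR adjusted p = 0.0177, 0.0306 and 0.0317). Nckap5 gave -0.76 with age (edgeR adjusted p = 0.021).

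Among clock genes, Tef was the 1 called of 17 tested in oligodendrocyte-like nuclei. Tef (chr15:81802421-81826863, plus strand) encodes a PAR-domain leucine zipper factor of the clock's output arm, driven by the CLOCK and BMAL1 pair through E-boxes. It read 78.7, 89.8 and 95.5 CPM ad libitum and 146, 147, 131 and 154 CPM restricted, a log2 fold of 0.71 ± 0.134 (edgeR adjusted p = 0.018). No restricted library came near the ad libitum range. Per2, a repressor of that pair, read 17.5, 7.53 and 6.37 CPM ad libitum and 24.9, 24.6, 16.3 and 15.8 CPM restricted, 1.34 ± 0.307 (edgeR adjusted p = 0.0516). The groups overlapped through ad libitum library 1, and without the libraries numbered 1 Per2 was called (edgeR adjusted p = 0.0451). Per1, its relative, gave 0.99 (edgeR adjusted p = 0.156) and Cry1, their partner in repression, 0.79 (0.44). Arntl, which encodes BMAL1, gave -0.78 (edgeR adjusted p = 0.494) and Clock -0.38 (0.327). In all, 6 clock genes were higher and 3 lower at an unadjusted p below 0.05, with a median of 0.32.

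The E-box, CACGTG, reads the same on both strands, and 4 promoter windows that hold it are shown, those of the called gene Tef and of Cry1 and Ciart, chosen as examples after their values were seen. It occurred in the 250 bases before a start in 5 of the 15 clock-list genes with an entry, or 33.3%, beside 6.86% of 27025 genes with a promoter entry (RefSeq, GRCm38.p6). The 5 genes were Tef, Per1, Cry1, Ciart and Bhlhe41, and overlap with other motifs was not examined. The D-box, TTANGTAA, searched on both strands, occurred in 1 of the 15, Rorb, and in 2.44% of all genes. Tef has an E-box before each of its 2 listed starts, Cry1 has 1, and Ciart, a repressor of the clock that is itself under clock control, has 3. The sequences run 5′ to 3′ on the gene's strand, with the E-box in capitals:
Tef, first start, chr15:81802423-81802672 (+): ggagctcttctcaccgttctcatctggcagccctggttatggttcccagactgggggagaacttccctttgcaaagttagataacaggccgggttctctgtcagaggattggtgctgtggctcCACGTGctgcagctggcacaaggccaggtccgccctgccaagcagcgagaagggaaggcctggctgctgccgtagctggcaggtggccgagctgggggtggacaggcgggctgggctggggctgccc
Tef, second start, chr15:81811164-81811413 (+): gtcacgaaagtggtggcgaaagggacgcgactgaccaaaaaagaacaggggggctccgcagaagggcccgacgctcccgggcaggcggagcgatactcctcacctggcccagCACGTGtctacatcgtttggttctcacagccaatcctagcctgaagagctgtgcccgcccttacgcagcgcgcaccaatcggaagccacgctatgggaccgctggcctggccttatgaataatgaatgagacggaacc
Cry1, chr10:85185055-85185304 (-): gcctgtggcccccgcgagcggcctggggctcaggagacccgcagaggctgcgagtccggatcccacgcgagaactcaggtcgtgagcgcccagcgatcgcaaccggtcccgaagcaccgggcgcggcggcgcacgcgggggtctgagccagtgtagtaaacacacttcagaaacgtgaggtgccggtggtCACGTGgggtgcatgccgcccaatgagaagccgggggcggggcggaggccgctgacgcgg
Ciart, chr3:95882229-95882478 (-): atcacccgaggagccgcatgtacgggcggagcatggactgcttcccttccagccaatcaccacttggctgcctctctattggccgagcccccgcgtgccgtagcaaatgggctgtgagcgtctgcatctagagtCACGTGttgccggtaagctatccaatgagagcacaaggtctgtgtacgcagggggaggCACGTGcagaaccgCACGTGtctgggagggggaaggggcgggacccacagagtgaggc
Among called genes the E-box occurred in 1 of 10 higher genes with an entry, Tef, and in 1 of 10 lower genes, Sema6d. A match shows these letters only, and binding was not measured.

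Per2 had a fold above 0 in several other classes without passing the test there. In astrocyte-like nuclei it read 40.1, 35.4 and 40.9 CPM ad libitum and 61.7, 71.3, 56.1 and 70.1 CPM restricted, 0.78 ± 0.18 (edgeR adjusted p = 0.493), with no overlap. The fold was 0.65 in CA1-like and 0.65 in granule-like neurons (edgeR adjusted p = 1 and 0.999), both without overlap, and 0.60 in subicular or cortical neurons (0.837). Ciart read 4.74, 4.52 and 5.45 CPM ad libitum and 8.61, 9.03, 6.49 and 8.10 CPM restricted in granule-like neurons, 0.73 ± 0.237 (edgeR adjusted p = 0.999). It also separated the groups in CA1-like neurons, at 1.01 (edgeR adjusted p = 1). Tef gave 0.06 in granule-like and 0.10 in CA1-like neurons, 0.28 in subicular or cortical neurons, 0.28 in astrocyte-like and 0.48 in microglia-like nuclei (edgeR adjusted p = 0.858 to 1). The time of day at which tissue was taken is not given in the sources used here, so its part cannot be told apart from that of the diet.

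**Figure D3:**
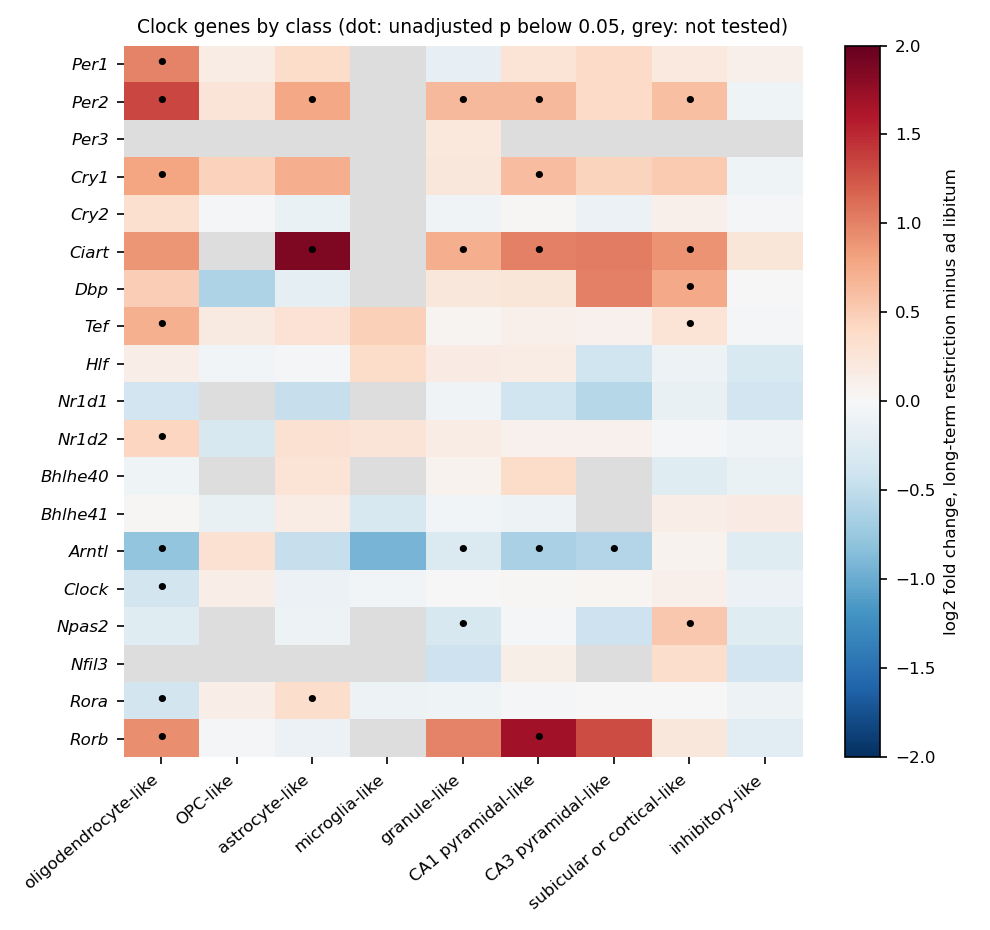
Log2 fold change of 19 clock genes (rows) in 9 classes (columns) for long-term restriction minus ad libitum, from blue (lower) to red (higher); dots mark an unadjusted p below 0.05 and grey a gene not tested. Per2 is dotted in 5 classes, and of all cells shown only Tef in oligodendrocyte-like nuclei passed the adjusted test.

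Other lists held no called gene in oligodendrocyte-like nuclei. Of 19 heat shock and chaperone genes, 18 had a fold above 0, 6 had an unadjusted p below 0.05, all higher, and the median was 0.40. Without the libraries numbered 1, 18 of 19 were above 0 and 3 had an unadjusted p below 0.05. Dnaja1, a co-chaperone of HSP70, gave 0.84 ± 0.216 (edgeR adjusted p = 0.102) and Hspa5, the HSP70 of the endoplasmic reticulum, 0.88 ± 0.265 (0.239). Of 25 sterol genes 10 had a fold above 0, with a median of -0.06, and of 21 fatty acid and sphingolipid genes 7, with -0.17. Elovl7, a fatty acid elongase, read 412 to 458 CPM ad libitum and 272 to 346 CPM restricted, -0.40 (edgeR adjusted p = 0.238). Fasn, fatty acid synthase, gave -0.75 (edgeR adjusted p = 0.544). Of 25 insulin, IGF, FoxO and mTOR genes 1 had an unadjusted p below 0.05, Tsc1, an inhibitor of mTOR complex 1, at 0.44 (edgeR adjusted p = 0.206). Irs2, an insulin receptor substrate, gave -0.26 (edgeR adjusted p = 0.708). Autophagy and lysosome genes gave 1 higher and 1 lower at an unadjusted p below 0.05 of 29, Gabarapl2, a conjugated autophagosome protein, at 0.59 (edgeR adjusted p = 0.44) and Ctsd, a lysosomal protease, at -0.61 (0.436). None of 11 sirtuin and NAD genes reached that level; Sirt4 and Sirt2 gave 0.49 and 0.23 (edgeR adjusted p = 0.735 and 0.738). Of 36 nuclear genes for oxidative phosphorylation, 1 did, Atp5a1, an ATP synthase subunit, at 0.37 (edgeR adjusted p = 0.579). None of 6 mitochondrially encoded RNAs, a sign of cytoplasm left on nuclei, did.

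In precursor-like nuclei, cells marked by Pdgfra and Cspg4 that divide and give rise to oligodendrocytes, 3 genes rose and 1 fell. Rph3a, rabphilin, a Rab3 effector in vesicle release, read 115, 86.5 and 93.8 CPM ad libitum and 166, 169, 256.5 and 191 CPM restricted, 1.02 ± 0.155 (edgeR adjusted p = 0.00142). Pou3f1 (chr4:124656807-124660655, plus strand), a POU transcription factor of myelinating lineages, read 40.9, 62.7 and 35.7 CPM ad libitum and 109.5, 126, 97.6 and 84.6 CPM restricted, 1.18 ± 0.2 (edgeR adjusted p = 0.00722). Ccnd1, cyclin D1, which drives entry into the cell cycle, read 50.1, 39.7 and 46.9 CPM ad libitum and 85.5, 96.2, 68.5 and 95.3 CPM restricted, 0.95 ± 0.176 (edgeR adjusted p = 0.016). For all 3 the lowest restricted library was above the highest ad libitum library. Zfp608, a zinc finger protein, read 571, 535 and 483 CPM ad libitum and 355, 320, 361 and 329 CPM restricted, -0.61 ± 0.118 (edgeR adjusted p = 0.0259).

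Pou3f1 and Ccnd1 were the called members of 24 lineage and early-differentiation genes, of which 13 had a fold above 0, with a median of 0.03 beside 0.00744 over all genes. Ccnd2, cyclin D2, gave 0.83 (edgeR adjusted p = 0.693) and Cspg4, the NG2 proteoglycan, 0.27 (0.822). Ccnd1 was lower in old than in young ad libitum precursors (-0.95, edgeR adjusted p = 0.00879), a contrast that shares the ad libitum controls. In mature oligodendrocyte-like nuclei Pou3f1 gave -0.06 and Rph3a -0.62 (edgeR adjusted p = 0.99 and 0.753). Ccnd1 gave 0.87 and Zfp608 -0.35 there, each in the same direction as in precursors (edgeR adjusted p = 0.572 and 0.502). The 4 genes were also called without the libraries numbered 1 (edgeR adjusted p = 6.35e-06 to 0.0275), where the class had 43 calls. Leaving out ad libitum library 4 left none of them called. Without ad libitum library 1, ad libitum library 2 or restricted library 2, 1 of the 4 stayed called, and without restricted library 4, 2 did. All 4 stayed called without restricted library 1 or restricted library 3. Summed granule-neuron markers in this class were 1122 to 1229 CPM restricted and 1075 to 1161 CPM ad libitum, and their part in the Rph3a result was not tested.

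The effect of restriction was also compared between classes gene by gene, and a gene that missed the threshold is not shown to respond alike. The per-library difference between oligodendrocyte-like and another class was tested with limma. Against precursors, Csmd2 was the 1 of 8567 genes called, 0.0117%, with a difference of -1.25 (limma adjusted p = 0.0371). Its fold was -1.04 in oligodendrocytes and 0.11 in precursors. No gene was called with any of the 7 libraries left out, nor with a prior count of 0.5. Against astrocytes 1 of 10176 genes was called, 0.00983%: Gse1, a component of a histone deacetylase complex, with a difference of -1.43 ± 0.195 (limma adjusted p = 0.027). The edgeR folds were -0.62 in oligodendrocytes and 0.52 in astrocytes. Folds from edgeR come from another fit than limma's differences and do not subtract to them exactly, here or for Csmd2. Gse1 was called in neither class alone, and no gene was called against astrocytes with any of the 7 libraries left out. Against granule neurons none of 11100 was called, with 333 at an unadjusted p below 0.05, and no other tool was run for these differences. Adamts2 came nearest there, at -2.29 (limma adjusted p = 0.341).

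In astrocyte-like nuclei, which supply much of the brain's cholesterol, no gene passed the test, but sterol genes lay to 1 side. This class was chosen for the list after its values were seen. All 26 sterol genes tested had a fold below 0, 13 of them with an unadjusted p below 0.05, and 9 separated the groups, beside 2.56% of all astrocyte genes that were lower at an unadjusted p below 0.05 and 3.3% that separated downward. Oligodendrocyte markers in the astrocyte sums added up to 132 to 217 CPM restricted and 208 to 356 CPM ad libitum, with none of 8 at an unadjusted p below 0.05. Granule-neuron markers added up to 297 to 386 and 349 to 453 CPM. Their part in the sterol result was not tested. The median was -0.61, beside -0.00195 over all genes in the class. Msmo1, a methylsterol oxidase of cholesterol synthesis, read 152, 101 and 130 CPM ad libitum and 82.8, 80.1, 62.8 and 74.8 CPM restricted, -0.75 ± 0.152 (edgeR adjusted p = 0.394). After acute restriction, against the same ad libitum libraries, Msmo1 gave -0.96 (edgeR adjusted p = 0.0458), where 0.0523% of astrocyte genes were called, 0.00872% higher and 0.0436% lower. Sqle, squalene epoxidase, read 42.6, 29.1 and 29.7 CPM ad libitum and 22.1, 20.2, 11.2 and 18.6 CPM restricted, -0.90 ± 0.263 (edgeR adjusted p = 0.909). Genes of this pathway share regulators and libraries and are not independent. Without ad libitum library 1, 2 of 26 had an unadjusted p below 0.05 and the median was -0.47. Without all libraries numbered 1, 21 of 24 were below 0, with 5 at an unadjusted p below 0.05.

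**Figure D4:**
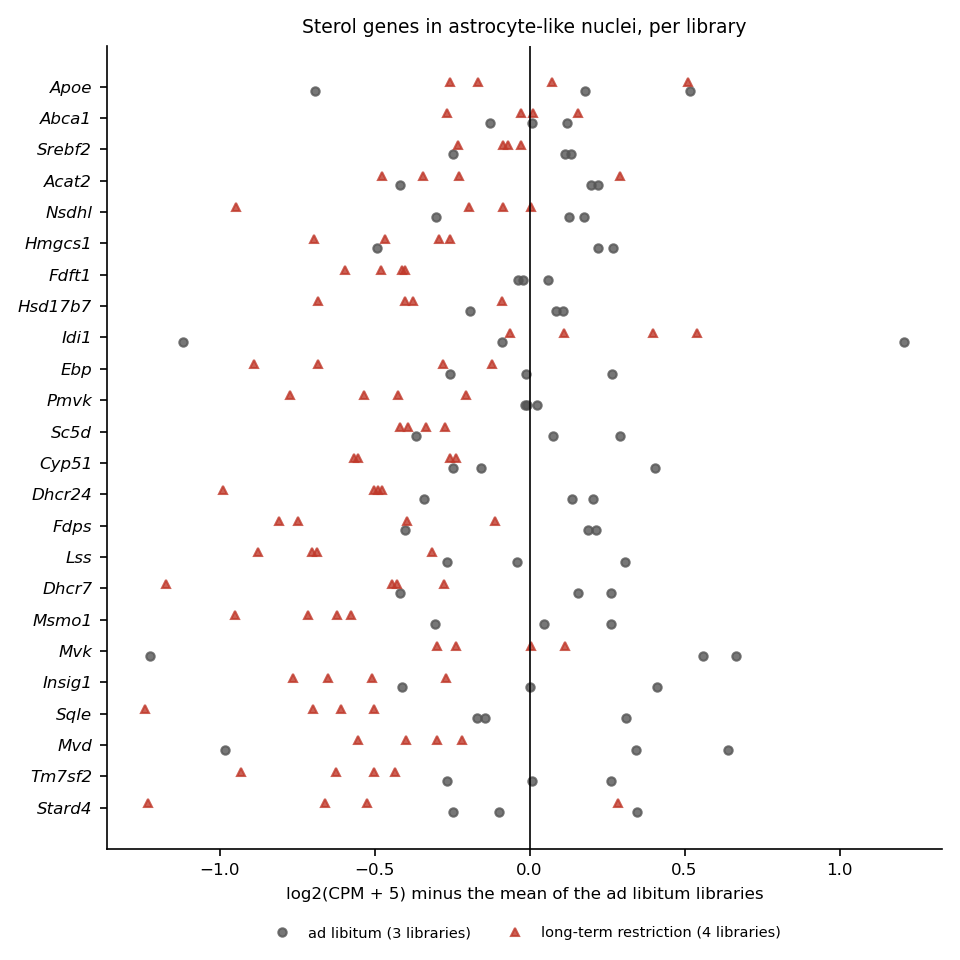
Level of 24 of the 26 sterol genes (rows, ordered by fitted fold) in astrocyte-like sums of each library, as log2(CPM + 5) minus the mean of the 3 ad libitum libraries; circles are ad libitum, triangles restricted. No gene passed the adjusted test; for Msmo1 and Sqle all 4 triangles lie left of all circles, while Apoe and Abca1 overlap.

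Astrocyte-like nuclei also showed 35 calls, 8 higher and 27 lower, once the libraries numbered 1 were left out, of which none was called with all libraries. They included Ppfia2, a liprin scaffold protein, at -1.31 (edgeR adjusted p = 0.00195 without those libraries) against -0.73 with them (1). Of 10 genes tested there from the list of reactive glia and complement, none was called, 3 had a fold above 0 and the median was -0.43. Aspg, an asparaginase raised in reactive astrocytes, read 26.9, 44.7 and 22.3 CPM ad libitum and 17.6, 22.2, 13.5 and 20.4 CPM restricted, -0.74 (edgeR adjusted p = 0.915). Osmr, the oncostatin M receptor, gave -0.61 (edgeR adjusted p = 0.921).

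Microglia-like nuclei gave no call among 4275 genes, with 208 at an unadjusted p below 0.05 and 1 called by DESeq2. Of 12 activation genes 4 had a fold above 0, with a median of -0.34 beside 0.01 over all genes of the class. In these sums oligodendrocyte markers added up to 237 to 337 CPM restricted and 380 to 479 CPM ad libitum, without overlap, and mural-cell markers to 19.2 to 36.4 and 13.8 to 469 CPM. Their part in the microglial values was not tested. Cd9, a tetraspanin, read 209.5, 213 and 186.5 CPM ad libitum and 124, 174, 151 and 83.2 CPM restricted, -0.59 (edgeR adjusted p = 0.959). Ctsd gave -0.60 (edgeR adjusted p = 0.959). Among 12 homeostatic genes, Sall1, a transcription factor that keeps microglial identity, and Selplg, a selectin ligand, gave 0.33 and 0.29 (edgeR adjusted p = 0.959 each). Of 5 interferon and MHC genes, H2-K1 gave -1.06 and Stat2 0.62 (edgeR adjusted p = 0.959 and 0.981). In granule-like neurons, the principal cells of the dentate gyrus, Bdnf, a neurotrophin, gave -0.24 and Pdyn, the dynorphin precursor, -0.77 (edgeR adjusted p = 0.999 each). The Pdyn groups did not overlap, at 3.71 to 6.03 CPM ad libitum and 2.32 to 3.32 CPM restricted. Fos, an activity-induced factor, gave 1.61 at 1.09 CPM or less in every library (edgeR adjusted p = 0.999). Dcx and Stmn2, markers of young neurons, gave 0.36 and 0.33 (edgeR adjusted p = 0.999 each).

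The shares of the classes varied widely between libraries of 1 group. Precursor-like nuclei were 3.45% ± 0.973 (SD, n = 4) of named nuclei under restriction and 5.04% ± 0.969 (SD, n = 3) ad libitum (exact two-sided permutation test over 35 assignments, adjusted p = 0.741). Oligodendrocyte-like nuclei ranged from 2.44% to 25.9% and from 3.91% to 19.6% (adjusted p = 0.914, exact permutation). Subicular or cortical neurons, with the smallest unadjusted p, were 7.78% ± 1.28 restricted and 5.49% ± 1.23 ad libitum (exact permutation p = 0.0857, adjusted p = 0.741). With 4 and 3 libraries the smallest p the exact test allows is 0.0286 before adjustment, so no single class could have passed after adjustment over 13 classes, and these tests do not show that the shares were alike. A lower sum for a class can mean fewer nuclei or less RNA per nucleus, which CPM does not tell apart. The median UMIs per nucleus were lower under restriction on average in all 11 classes, for oligodendrocytes 1671 to 2298.5 against 1988 to 3144 (adjusted p = 0.539, exact permutation). These classes share libraries, and ad libitum library 1 had the highest median of those compared in every class where it was tested. In CA1-like neurons it had 19110, against 10510 and 11007 in ad libitum libraries 2 and 4 and 10310 to 12853 restricted. With depth per nucleus as a covariate, 5 of the 28 genes were called in oligodendrocyte-like nuclei: Adamts2, Piezo2, Csmd2, Opalin and Phyhd1. For genes no longer called, such as Hif3a (1.84 with the covariate and 1.85 without), Ogdhl (1.22 and 1.21), Tef (0.71 in both fits) and Bcl2 (1.44 and 1.41), the log2 fold was almost the same. For Dcc (-0.49 and -0.67) and Gria4 (-0.62 and -0.73) it was nearer 0. Astrocyte markers summed to 401 to 641 CPM restricted and 412 to 473 CPM ad libitum in oligodendrocyte sums, with 4 of 9 tested higher at an unadjusted p below 0.05, and macrophage markers to 3.06 to 12.5 against 0 to 2.11 CPM, with Pf4 and Ms4a7 at 0. Fibroblast markers summed to 681 to 2595 CPM restricted and 487 to 1236 CPM ad libitum, beside 42.3 to 94.8 and 41 to 60.7 CPM in precursor-like sums. How much of these marker sums came from other cells was not tested. Their part in the results was not tested.

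The calls depended on single libraries. Adamts2, Csmd2 and Opalin were called in each of the 20 alternatives run, Piezo2 in the 19 that gave it an adjusted p, and none of the 32 genes reversed in any. Without ad libitum library 4 the oligodendrocyte count was 5, without ad libitum library 2 it was 8, without restricted library 2 it was 6, without restricted library 4 it was 12, and without restricted library 3 it was 86. The 5 and the 8 genes called without either of these ad libitum libraries were all lower under restriction, so none of the 12 raised genes was called without ad libitum library 2 or without ad libitum library 4. Without the libraries numbered 1 the class had 37 calls, of which 17 were among the 28.

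**Figure D5:**
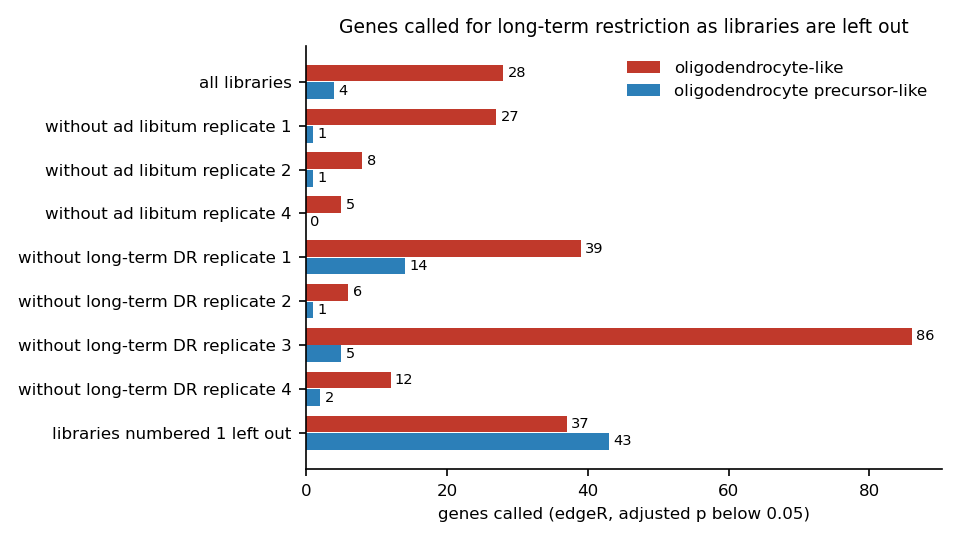
Number of genes called (x axis, edgeR adjusted p below 0.05) in oligodendrocyte-like and precursor-like nuclei with all libraries, with each of the 7 left out in turn, and without the libraries numbered 1 of all groups. The oligodendrocyte count runs from 5 without ad libitum replicate 4 to 86 without long-term DR replicate 3.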

How the data were processed

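The values deposited by the authors were raw UMI counts per gene and barcode, made with Cell Ranger 4.0.0 per the file headers and with the mm10 build per the submitters' processing notes. Barcodes with fewer than 500 genes or over 5% mitochondrial counts were dropped, and the highest-scoring predicted doublets were removed, at a rate that rose with the number of barcodes, which took 7386 of 105427 in all 13 libraries. Nuclei were clustered with scanpy 1.11.5 (2000 variable genes, 30 components, 20 neighbours, Leiden resolution 1) into 43 clusters, of which 22 were named from markers. The naming thresholds were set after seeing the data. A name required at least 3 markers above the median of the other clusters by 1 on the log2 scale, and class names mean marker-like nuclei. The microglia-like class may hold other macrophages.

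Counts were summed per library and class (at least 20 nuclei) and fitted with edgeR 4.0.16 in R 4.3.3 over all 13 libraries, with TMM scaling, its filter on low counts and the quasi-likelihood test. Adjusted p-values are Benjamini-Hochberg over all genes of a class. Differences between classes were tested with limma 3.58.1 on per-library differences of log2 CPM with a prior count of 2. Shares and depth were tested by exact permutation. DESeq2 1.42.0 and the other alternatives are described at the end. The scripts were tested on simulated data. Coordinates are from GENCODE annotation of mm10, which matched 32158 of 32285 genes.

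The groups of genes and the comparison were chosen with earlier results of these data known. Named were the genes called outside oligodendrocyte-like nuclei, the 20 of smallest adjusted p within them, called list members, and, of lists with fewer than 2 calls, the members of smallest p up to 2. Other genes named with values were chosen after their values were seen. Values of some list members are not reported here, and they are left out of the plot of sterol genes, while the lists' counts include them.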

Additional observations from a re-analysis of the deposited data

Results flagged for a closer look

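Csmd2 had a lower fold in oligodendrocyte-like than in precursor-like nuclei, a difference of -1.25 on the log2 scale (limma adjusted p = 0.0371). Gse1 differed between oligodendrocyte-like and astrocyte-like nuclei by -1.43 (limma adjusted p = 0.027). Both were picked out by the test of the difference between classes. Neither was called with any of the 7 libraries left out, and Csmd2 was not called with a prior count of 0.5. In subicular or cortical excitatory neurons, the median UMIs per nucleus were 7632, 7628, 10566 and 7917.5 in restricted libraries 1 to 4. The gap of library 3 to the nearest other was 0.901 of the group's range. Of 54 groups examined for a library apart from the rest, 1 passed the criterion, and chance alone gives about 1 in 20.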

How the results depend on the processing

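The main counts were 28 genes in oligodendrocyte-like nuclei, 4 in precursors and 0 in the other classes. In that order, DESeq2 gave 18, 12 and 16, with no adjusted p for 6589 oligodendrocyte and 6750 precursor genes. No filter on low counts gave 132, 27 and 31, a term for number 1 gave 76, 30 and 30, and median UMIs per nucleus as a covariate 5, 11 and 1. At least 50 nuclei per sum gave 46 in oligodendrocytes and 2 in other classes. The 7 libraries alone gave 26 in precursors and 3 in other classes, removal of the length trend 14 and 2, resolution 0.5 gave 12 in precursors, and kept doublets 1 in other classes. Without the libraries numbered 1, an alternative chosen after seeing the data, precursors gave 43 and other classes 52. Leaving out 1 library at a time gave 5 to 86, 0 to 14 and 0 to 11. The tests between classes called 0 genes against precursors and 0 against astrocytes with each library left out, and 0 against precursors with a prior count of 0.5. With the replicate block the counts were 139, 26 and 128 over 13 libraries and 734, 136 and 1548 over 7. Deviations of same-numbered libraries from their group's mean correlated at 0.455, 0.175 and 0.0253 over 19294 genes. The value of the libraries numbered 1 was the highest of all, and ad libitum library 4 correlated best with restricted library 3 (0.428). Deviations within a group are tied through its mean, so these values cannot decide whether the numbers pair the libraries. The labels state no pairing, and the main fit used none. None of the 32 called genes reversed direction in any of the 20 alternatives. This does not cover results that were not called, such as the shares of the classes and the UMIs per nucleus. The causes of these changes were not tested. With 3 and 4 libraries and few oligodendrocyte nuclei in the libraries numbered 1, small changes could be missed.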
